A study of Homo sapiens with 18 samples.

Results

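Cancer-testis antigen genes are normally transcribed in germ cells and silent in most adult tissues, and many tumours, melanoma among them, switch some of them on. The members described here are the rows of the deposited expression tables whose gene symbol starts with MAGEA, MAGEB, MAGEC, GAGE, PAGE, XAGE, SSX or CTAG followed by a digit, together with PRAME. The search found 72 of the 60595 genes in each table. Of these, 33 reached 1 FPKM in at least 2 of the 18 libraries and are described by their values, and 39 stayed under that level. FPKM is the number of sequenced fragments scaled to transcript length and to the library's mapped fragments, so levels can be set side by side between genes of different length. Of the 33, SSX2IP was caught by its name alone: it encodes a centrosome and cell junction protein that binds SSX2 and belongs to no antigen family, so 32 family members remained.

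The study profiled A375 cells, a human melanoma line with an activating BRAF mutation, to find genes that depend on the histone demethylase LSD1 and the transcription factor FOSL1 in cells resistant to BRAF and MEK inhibitors. The labels mark the cells P or R, read here from the series title as drug-sensitive parental and inhibitor-resistant cells. There were 9 groups of 2 libraries. R_DT and P_DT cells, labelled wild type, received 250 nM dabrafenib (a BRAF inhibitor) with 10 nM trametinib (a MEK inhibitor), and R_DMSO and P_DMSO cells, also labelled wild type, received the vehicle. R_shLSD1 and P_shLSD1 cells carried a lentiviral hairpin against LSD1 (gene KDM1A), R_shFosL1 cells one against FOSL1, and R_shCtrl and P_shCtrl cells a control hairpin. For the hairpin groups the labels name no drug or vehicle. The labels describe a pair of library preparations, a directional kit and an rRNA-depleted preparation sequenced on different machines, without saying which libraries had which. The part of the preparation in the differences between lines and tables was not tested. Whether R cells are 1 clone, how long cells were treated and whether R_DMSO cells were taken off the inhibitors are not given in the sources used here. The labels do not say that the 2 libraries of a group came from separate cultures, so the p-values measure the spread between these libraries, which may be technical.

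Most of these genes lie in clusters on the X chromosome that arose by repeated duplication. Their promoters are kept silent by DNA methylation in somatic cells and are bound by ETS factors when demethylated. MAGE proteins bind RING-type ubiquitin ligases and redirect them to new substrates, PRAME is a substrate receptor of a cullin ligase, and the small GAGE, PAGE, XAGE and CTAG proteins are studied mainly as targets of T cells. In melanoma, MAGE-A proteins, PRAME and NY-ESO-1 (encoded by CTAG1A and CTAG1B) are among the best known tumour antigens.

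Library totals lay between 556410 and 814364 FPKM, and 13921 to 15314 genes per library reached 1 FPKM. The 2 P_DMSO libraries stood further apart than those of any other group. Over 10440 genes with a mean of 5 FPKM or more, the SD of the log2 difference between replicates was 0.71 in P_DMSO and 0.356 to 0.476 in the other 8 groups. The melanocytic markers only partly matched the label: TYR was listed at 0 in all 18 libraries, and SOX10 lay between 0 and 0.164 FPKM in R libraries, against 89.1 to 333 FPKM in P libraries. The hairpin target KDM1A was at 10.1 and 11.1 FPKM in R_shLSD1, compared with 73.3 and 76.5 FPKM in R_shCtrl, and at 9.54 and 6.73 FPKM in P_shLSD1, compared with 78.1 and 72.4 FPKM in P_shCtrl. Germ cell markers summed to between 0.126 and 5.10 FPKM per library, with DAZL, TDRD1 and PRM1 listed at 0 throughout.

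The 33 described members were 11 of 18 MAGEA rows, 2 of 11 MAGEB rows, 1 of 3 MAGEC rows, PRAME, 3 of 3 CTAG rows, 4 of 13 GAGE rows, 4 of 6 PAGE rows, 3 of 5 XAGE rows and 3 of 11 SSX rows, besides SSX2IP. In the annotation (hg38, GENCODE 29), 31 of the 33 lie on chromosome X, PRAME lies on chromosome 22 (22547701 to 22559361, minus strand) and SSX2IP on chromosome 1. Of the 39 rows under the level, 19 were listed at 0 in all 18 libraries. The highest value among those 39 was 2.75 FPKM, and 3 of them reached 1 FPKM in 1 library.

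A core of these genes was transcribed in every condition. In all 18 libraries, 14 of the 33 reached 1 FPKM, SSX2IP, which is no antigen gene, and the antisense transcript MAGEA4-AS1 among them. MAGEA4 (chromosome X, 151912509 to 151925170, plus strand), which encodes a partner of the ubiquitin ligase RAD18, had the highest level, with a range of 259 to 964 FPKM and a median of 466 FPKM. PAGE5 (chromosome X, 55220355 to 55224108, plus strand) followed with 173 to 462 FPKM and a median of 243 FPKM. MAGEA3 had a median of 84.3 FPKM, PRAME of 80.9, PAGE2 of 77.2, MAGEC2 of 68.4, MAGEA12 of 59.2 and MAGEA6 of 53.1. Apart from PAGE5 and MAGEA3, neighbours in this order had overlapping ranges over the 18 libraries.

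PRAME, which also represses retinoic acid receptor signalling, moved least. It was at 76.3 and 77.7 FPKM in R_DT, 95.1 and 92.7 in R_DMSO, 81.1 and 90.8 in P_DT and 77.3 and 68.9 in P_DMSO. In the hairpin tables it was at 78.1 and 80.7 FPKM in R_shLSD1, 65.8 and 67.1 in R_shFosL1, 88.2 and 94.8 in R_shCtrl, 75.7 and 91.8 in P_shLSD1 and 92.7 and 92.9 in P_shCtrl. All 18 values lay between 65.8 and 95.1 FPKM, and PRAME passed the test in none of the 7 comparisons below. Without P_DMSO replicate 1 it was called higher in R_DMSO than in P_DMSO (0.44, limma adjusted p = 0.032).

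MAGEA3 and MAGEA6 encode near-identical proteins that form a ligase with TRIM28. MAGEA3 was at 61.9 and 69.0 FPKM in R_DT, 70.4 and 77.3 in R_DMSO, 74.3 and 72.4 in P_DT and 68.2 and 73.3 in P_DMSO. Its levels with hairpins were 106 and 99.3 FPKM in R_shLSD1, 84.8 and 83.8 in R_shFosL1, 97.2 and 94.9 in R_shCtrl, 95.2 and 118 in P_shLSD1 and 126 and 109 in P_shCtrl. Within each table the MAGEA3 groups lay close together or overlapped. MAGEA6 was at 38.4 and 40.7 FPKM in R_DT, 45.4 and 35.5 in R_DMSO, 46.1 and 48.5 in P_DT and 32.8 and 46.6 in P_DMSO. With hairpins it was at 56.0 and 60.4 FPKM in R_shLSD1, 51.6 and 59.0 in R_shFosL1, 65.8 and 64.9 in R_shCtrl, 54.5 and 71.5 in P_shLSD1 and 83.2 and 70.2 in P_shCtrl. Neither gene passed the test in any comparison.

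MAGEA12, a further MAGE-A gene of the same cluster, kept to the same band. It was at 41.3 and 39.9 FPKM in R_DT, 50.4 and 43.9 in R_DMSO, 50.1 and 55.1 in P_DT and 39.9 and 42.6 in P_DMSO. With hairpins it was at 59.3 and 58.9 FPKM in R_shLSD1, 59.8 and 59.4 in R_shFosL1, 70.7 and 60.5 in R_shCtrl, 59.4 and 72.0 in P_shLSD1 and 81.1 and 64.8 in P_shCtrl. MAGEA12 was not called in any comparison, but was lower in R_DT than in P_DT with quantile normalization (-0.48, limma adjusted p = 0.024) and with the 4 libraries alone (-0.36, limma adjusted p = 0.029).

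The PAGE pair was high but varied more between replicates. PAGE5 was at 212 and 252 FPKM in R_DT, 213 and 185 in R_DMSO, 222 and 271 in P_DT and 174 and 231 in P_DMSO, with overlapping groups. In the hairpin tables it was at 312 and 297 FPKM in R_shLSD1, 173 and 174 in R_shFosL1, 281 and 253 in R_shCtrl, 355 and 462 in P_shLSD1 and 415 and 233 in P_shCtrl. PAGE2 was at 84.3 and 103 FPKM in R_DT, 64.3 and 44.2 in R_DMSO, 157 and 176 in P_DT and 57.3 and 129.9 in P_DMSO. With hairpins PAGE2 was at 64.3 and 62.4 FPKM in R_shLSD1, 63.3 and 71.3 in R_shFosL1, 63.8 and 54.4 in R_shCtrl, 114 and 159 in P_shLSD1 and 128 and 83.1 in P_shCtrl. Neither was called in any comparison. PAGE2 in P_DT lay above both P_DMSO libraries, with a difference of 0.94 ± 0.37 on the log2(FPKM + 1) scale (SE, limma adjusted p = 0.12); without P_DMSO replicate 2 the limma adjusted p was 0.0056. PAGE2 was also called lower in R_DMSO than in P_DMSO without P_DMSO replicate 1 (-1.27, limma adjusted p = 0.012), and lower in R_DT than in P_DT with quantile normalization (-1.03, limma adjusted p = 0.038) and with the 4 libraries alone (-0.83, limma adjusted p = 0.008). PAGE5 was called higher in R_shLSD1 than in R_shCtrl with the replicate block (0.19, limma adjusted p = 0.049).

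**Figure D1:**
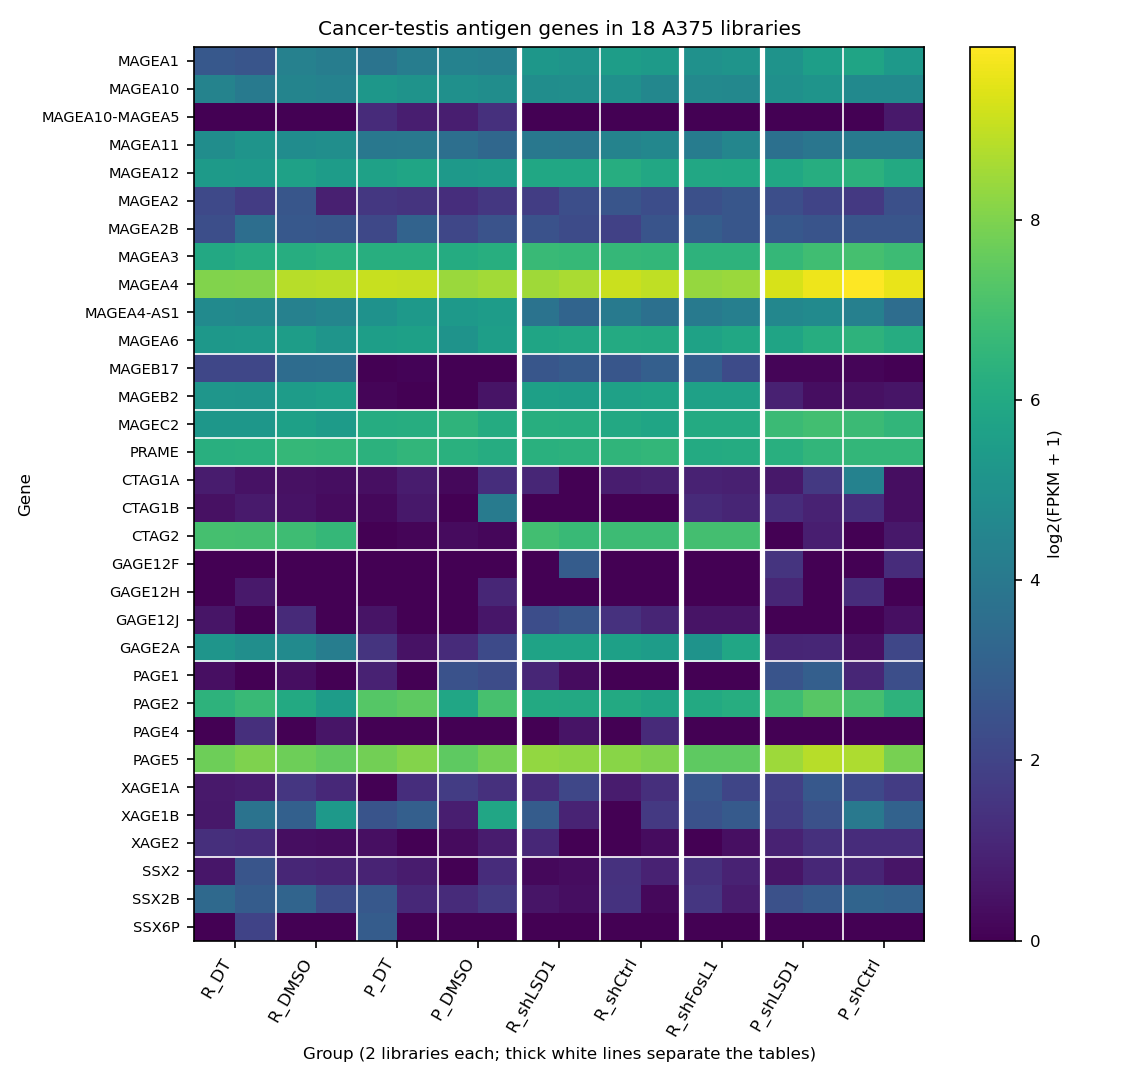
Levels of the 32 family members in the 18 libraries, as log2(FPKM + 1); rows are genes grouped by family, columns are libraries grouped by condition, and thick white lines separate the 4 tables, which were made separately. MAGEA4 and PAGE5 are the brightest rows in every library, while CTAG2, MAGEB2, GAGE2A and, more faintly, MAGEB17 are brighter in R columns than in P columns.

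The promoters of 24 of the 32 family members were found in the RefSeq promoter table (build GRCh38.p14). The members with no entry are CTAG1A, CTAG1B, CTAG2, MAGEA1, MAGEA10, MAGEA10-MAGEA5, MAGEB17 and SSX6P. The last 120 bases before the start are shown for 6 genes to which the comparisons below return: MAGEB2 and GAGE2A, higher in R cells, MAGEA11, higher in R_DMSO and R_DT cells than in P cells so treated, PAGE1, lower in R_DMSO cells, MAGEA4, which responded to the drugs in both lines, and MAGEA3, which was not called. Capitals mark GGATGTGA or its reverse complement TCACATCC, and CTTCCG or CGGAAG, letters of a common form of ETS site, searched on both strands. The letters GGATGTGA were picked after these sequences had been read, and in the MAGEB2 sequence the 2 motifs do not overlap. Where RefSeq lists several starts, the most upstream is shown.
MAGEB2 (chrX:30215443-30215562, plus strand): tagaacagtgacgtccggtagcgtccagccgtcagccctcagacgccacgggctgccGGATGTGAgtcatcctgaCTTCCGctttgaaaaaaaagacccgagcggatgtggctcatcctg
MAGEA11 (chrX:149711940-149712059, plus strand): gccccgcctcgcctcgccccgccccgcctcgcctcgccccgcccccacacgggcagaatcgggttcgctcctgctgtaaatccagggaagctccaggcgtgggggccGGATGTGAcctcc
GAGE2A (chrX:49589376-49589495, plus strand): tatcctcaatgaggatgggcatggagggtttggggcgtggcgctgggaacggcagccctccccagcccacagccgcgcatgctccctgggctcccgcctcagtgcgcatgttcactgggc
PAGE1 (chrX:49695985-49696104, minus strand): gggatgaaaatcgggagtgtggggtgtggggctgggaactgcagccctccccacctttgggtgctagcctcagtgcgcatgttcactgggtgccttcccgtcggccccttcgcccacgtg
MAGEA4 (chrX:151912354-151912473, plus strand): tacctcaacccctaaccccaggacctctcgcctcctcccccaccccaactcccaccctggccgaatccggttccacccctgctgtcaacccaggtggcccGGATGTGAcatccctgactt
MAGEA3 (chrX:152698674-152698793, plus strand): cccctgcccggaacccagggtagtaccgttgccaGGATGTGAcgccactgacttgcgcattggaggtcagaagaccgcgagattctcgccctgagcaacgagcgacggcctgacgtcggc

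Within the whole RefSeq window of 300 bases, GGATGTGA on either strand was present in 8 of the 9 matched MAGE-family genes (MAGEA2, MAGEA2B, MAGEA3, MAGEA4, MAGEA6, MAGEA11, MAGEA12 and MAGEB2, not MAGEC2), counting a gene with several starts once. It was present in 8 of all 24 matched members (33.3%) and in 1.16% of the 35116 promoters in the table. CTTCCG on either strand was present in 4 of the 24 (MAGEA4, MAGEA11, MAGEB2 and PRAME, 16.7%) and in 19.5% of all promoters. That count is not one of all ETS sites, since other forms of the site were not searched for as such. Whether GGATGTGA is itself part of an ETS site was not tested. The MAGE genes are duplicates of each other, so their shared letters are not separate observations. The 120 bases shown for GAGE2A were identical to those of GAGE12F, GAGE12H and GAGE12J, and those of MAGEA3 to those of MAGEA6. In the 250 bases before the start, the members held between 2 and 18 CpG sites, taking the richest start of each gene, with a median of 9, against a median of 11 over all promoters (quartiles 3 and 23). The start of MAGEA11 in this table lies inside the longer gene span of GENCODE 29 (149688228 to 149717266).

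The first question was which members differed between resistant and parental cells without inhibitor. In R_DMSO cells a small set was transcribed that was at or near 0 in P_DMSO cells: CTAG2, MAGEB2, MAGEB17 and, less completely, GAGE2A. MAGEA11 was higher in R_DMSO as well, while PAGE1, MAGEC2, MAGEA4-AS1 and MAGEA10-MAGEA5 were lower. MAGEA4, PAGE5, MAGEA3, PRAME and PAGE2, abundant in both lines, were not called. Differences are of log2(FPKM + 1), tested with limma over every gene that reached 1 FPKM in 2 or more of the table's libraries, and a gene is called at a Benjamini-Hochberg adjusted p below 0.05. On this scale the change of low genes is understated. Of the 27 members tested, 5 were higher and 4 lower in R_DMSO, which is to be read against 27.6% of all 17190 genes tested (16.2% higher and 11.5% lower). The median difference was 0.06 over the members and 0.10 over all genes. CTAG2, MAGEB2 and MAGEB17 passed the filter on low values through R libraries alone, and PAGE1 and MAGEA10-MAGEA5 through P libraries alone, so a count over the members that passed gives no support of its own.

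CTAG2 (chromosome X, 154651972 to 154653579, minus strand) encodes LAGE-1, a close relative of NY-ESO-1. It was at 114 and 95.1 FPKM in R_DMSO, compared with 0.231 and 0.131 FPKM in P_DMSO. Every R_DMSO value lay far above every P_DMSO value, and the difference was 6.48 ± 0.16 (SE, limma adjusted p = 1.1e-05). MAGEB2 (chromosome X, 30215560 to 30220089, plus strand), a testis MAGE linked to stress granule control, was at 43.7 and 47.8 FPKM in R_DMSO, compared with 0 and 0.449 FPKM in P_DMSO. The MAGEB2 groups stood as clearly apart, by 5.28 ± 0.22 (SE, limma adjusted p = 3.8e-05). MAGEB17 (chromosome X, 16167481 to 16171464, plus strand), a MAGE-B gene on the short arm, was at 10.3 and 10.6 FPKM in R_DMSO and was listed at 0 in both P_DMSO libraries, so no fold is given (limma adjusted p = 9.1e-05). These 3 calls held under every alternative that kept both libraries of each group, with limma adjusted p between 5.6e-06 and 0.0085. The 3 genes passed the filter on low values through R libraries alone, so they had to differ once tested. The calls therefore give no support of their own.

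GAGE2A (chromosome X, 49589529 to 49596827, plus strand) belongs to the GAGE cluster of small disordered proteins. It was at 25.6 and 17.3 FPKM in R_DMSO, compared with 1.30 and 3.65 FPKM in P_DMSO, with no overlap and a difference of 2.76 ± 0.45 (SE, limma adjusted p = 0.0058). Without R_DMSO replicate 1 the adjusted p was 0.05 and the call was lost. GAGE copies share reads: 53.4% of the 100-base windows of the GAGE2A transcript occur in other genes. With the GAGE cluster summed, the difference was 2.52 ± 0.60 (SE, limma adjusted p = 0.023). MAGEA11, which encodes a coregulator of the androgen receptor, was at 27.6 and 28.5 FPKM in R_DMSO, compared with 11.2 and 8.87 FPKM in P_DMSO. Both MAGEA11 values in R_DMSO exceeded both in P_DMSO, and the difference was 1.40 ± 0.17 (SE, limma adjusted p = 0.0016).

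Among the members that were lower, PAGE1 (chromosome X, 49687450 to 49695993, minus strand) was at 0.292 and 0 FPKM in R_DMSO, compared with 4.64 and 3.91 FPKM in P_DMSO. The groups did not overlap and differed by -2.21 ± 0.36 (SE, limma adjusted p = 0.0057). PAGE1 passed the filter through the P_DMSO libraries alone, so it had to differ once tested. MAGEC2 (chromosome X, 142202345 to 142205290, minus strand), an activator of the TRIM28 ligase, was at 48.1 and 42.5 FPKM in R_DMSO, compared with 86.0 and 67.6 FPKM in P_DMSO. It remained well transcribed in both lines and differed by -0.74 ± 0.15 (SE, limma adjusted p = 0.013). The MAGEC2 call was lost without R_DMSO replicate 2 (limma adjusted p = 0.086) and when the 4 DMSO libraries were fitted alone (limma adjusted p = 0.09).

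MAGEA4-AS1, an antisense transcript that overlaps the 5′ end of MAGEA4 on the other strand, was at 19.5 and 21.9 FPKM in R_DMSO, compared with 39.5 and 43.7 FPKM in P_DMSO. It was lower in R_DMSO by a difference of -0.97 ± 0.16 (SE, limma adjusted p = 0.0058). MAGEA4 itself was at 456 and 476 FPKM in R_DMSO, compared with 343 and 374 FPKM in P_DMSO, a difference of 0.38 ± 0.12 that missed the threshold (SE, limma adjusted p = 0.053) and passed it without P_DMSO replicate 2 (limma adjusted p = 0.017). Whether the authors' counting used strand is not given in the sources used here, so reads of the pair may not be separated. MAGEA10-MAGEA5, a readthrough transcript, passed the filter through P libraries alone. It was listed at 0 in both R_DMSO libraries, compared with 0.802 and 1.58 FPKM in P_DMSO (limma adjusted p = 0.024). That call was lost without P_DMSO replicate 2, without either R_DMSO library and with the 4 DMSO libraries alone, where adjusted p lay between 0.074 and 0.099.

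The same contrast was made with inhibitors present, between R_DT and P_DT cells. CTAG2, MAGEB2, MAGEB17, GAGE2A and MAGEA11 were again higher in R cells, joined by the low gene XAGE2, which passed the filter on low values through the R_DT libraries alone. MAGEA1, MAGEA4 and MAGEA10 were lower in R_DT than in P_DT, with MAGEC2, MAGEA4-AS1, MAGEA10-MAGEA5 and SSX2IP. In all, 6 of 27 members were higher and 7 lower, SSX2IP among the lower, against 37.6% of all genes tested (18.6% higher and 19% lower). The median difference was -0.16 over the 26 members other than SSX2IP, and -0.05 over all genes. The 2 line comparisons use different libraries of the same table.

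CTAG2 was at 128 and 123 FPKM in R_DT, compared with 0 and 0.0963 FPKM in P_DT (6.91 ± 0.16, SE, limma adjusted p = 4e-06). MAGEB2 was at 35.6 and 35.0 FPKM in R_DT, compared with 0.0885 and 0 FPKM in P_DT (5.12 ± 0.22, SE, limma adjusted p = 2.3e-05). MAGEB17 was at 3.36 and 3.28 FPKM in R_DT, compared with 0 and 0.0781 FPKM in P_DT (2.06 ± 0.19, SE, limma adjusted p = 4e-04). In each of these, both R_DT libraries lay far above both P_DT libraries. As on vehicle, these genes passed the filter through R libraries alone, so they had to differ once tested. GAGE2A was at 35.1 and 28.8 FPKM in R_DT, compared with 1.85 and 0.384 FPKM in P_DT (4.04 ± 0.45, SE, limma adjusted p = 0.00089). MAGEA11 was at 28.1 and 33.9 FPKM in R_DT, compared with 14.7 and 15.2 FPKM in P_DT (1.00 ± 0.17, SE, limma adjusted p = 0.0041). XAGE2, another short-arm antigen gene, was close to the detection level, at 1.53 and 1.40 FPKM in R_DT, compared with 0.309 and 0 FPKM in P_DT, and its call (limma adjusted p = 0.017) was lost without P_DT replicate 2 or either R_DT library (0.067 to 0.089).

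MAGEA4 was at 259 and 269 FPKM in R_DT, compared with 541 and 528 FPKM in P_DT, with no overlap (-1.01 ± 0.12, SE, limma adjusted p = 0.00098). MAGEA1 (chromosome X, 153179285 to 153183880, plus strand), the founding gene of the MAGE family, was at 5.70 and 5.20 FPKM in R_DT, compared with 13.1 and 17.6 FPKM in P_DT (-1.33 ± 0.18, SE, limma adjusted p = 0.0018). MAGEA10 (chromosome X, 152133310 to 152138578, minus strand) was at 20.5 and 15.4 FPKM in R_DT, compared with 37.3 and 33.1 FPKM in P_DT (-0.94 ± 0.17, SE, limma adjusted p = 0.0055). All 3 MAGE-A genes were thus lower in both R_DT libraries than in both P_DT libraries. On vehicle MAGEA10 was at 21.5 and 20.2 FPKM in R_DMSO, compared with 30.6 and 28.1 FPKM in P_DMSO, and MAGEA1 at 19.7 and 17.3 FPKM in R_DMSO, compared with 20.0 and 19.0 FPKM in P_DMSO. Neither was called on vehicle, where quantile normalization put MAGEA10 lower in R_DMSO (-0.62, limma adjusted p = 0.049).

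MAGEC2 was at 37.2 and 36.6 FPKM in R_DT, compared with 69.1 and 70.8 FPKM in P_DT (-0.90 ± 0.15, SE, limma adjusted p = 0.0043). SSX2IP was at 4.14 and 5.49 FPKM in R_DT, compared with 10.4 and 10.6 FPKM in P_DT (-0.99 ± 0.18, SE, limma adjusted p = 0.0059). Neither pair of groups overlapped, and SSX2IP on vehicle was at 6.78 and 6.73 FPKM in R_DMSO, compared with 9.01 and 8.04 FPKM in P_DMSO, with no call. MAGEA4-AS1 was at 25.5 and 23.7 FPKM in R_DT, compared with 31.8 and 40.4 FPKM in P_DT (-0.53 ± 0.16, SE, limma adjusted p = 0.04). MAGEA10-MAGEA5 was listed at 0 in both R_DT libraries, compared with 1.32 and 0.795 FPKM in P_DT (limma adjusted p = 0.023). Both calls were lost when either R_DT library was left out. Without P_DT replicate 2 the MAGEA4-AS1 call was also lost (-0.36), as was that of MAGEA10-MAGEA5 without P_DT replicate 1 (-0.84). The MAGEA4-AS1 call was lost with no filter on low values too (limma adjusted p = 0.066). The replicate block (0.05) and moderation without trend and robust (0.061) lost it as well.

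**Figure D2:**
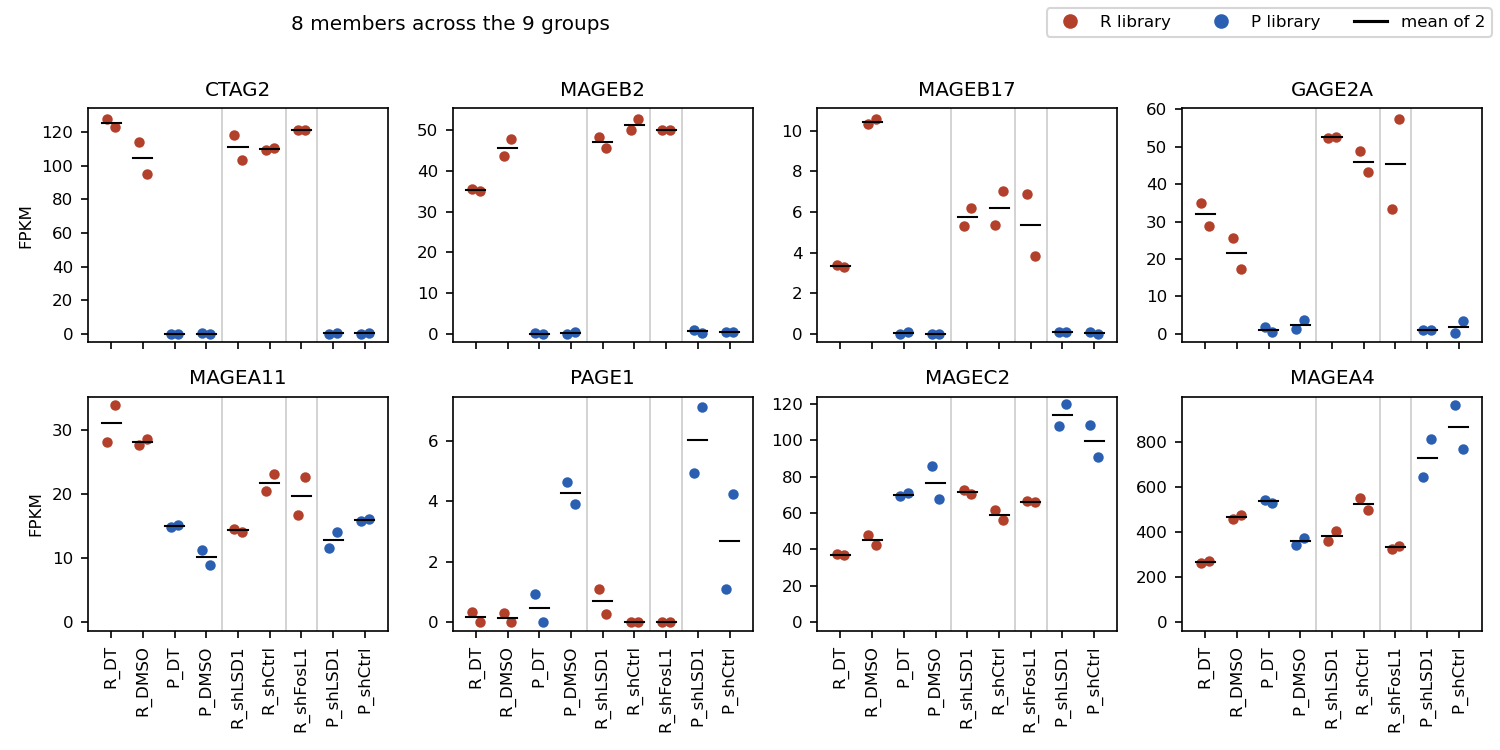
FPKM of 8 members in each library of the 9 groups; points are libraries (red for R, blue for P), black bars are means of 2, and grey lines separate the tables, which were made separately. CTAG2, MAGEB2, MAGEB17 and GAGE2A are high in all 10 R libraries and low in all 8 P libraries, whereas MAGEA4 is high in every group.

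The hairpin tables give further libraries of both lines, made separately, so their levels stand side by side without a test between lines. CTAG2 was at 118 and 104 FPKM in R_shLSD1, 122 and 121 in R_shFosL1 and 109 and 111 in R_shCtrl, compared with 0 and 0.769 in P_shLSD1 and 0 and 0.574 in P_shCtrl. MAGEB2 was at 48.4 and 45.7 FPKM in R_shLSD1, 50.1 and 50.0 in R_shFosL1 and 50.0 and 52.7 in R_shCtrl, compared with 0.864 and 0.283 in P_shLSD1 and 0.361 and 0.463 in P_shCtrl. MAGEB17 was at 5.32 and 6.19 FPKM in R_shLSD1, 6.89 and 3.81 in R_shFosL1 and 5.34 and 7.02 in R_shCtrl, compared with 0.0882 and 0.0922 in P_shLSD1 and 0.0874 and 0 in P_shCtrl. For each of the 3 genes, every R library lay above every P library. GAGE2A was at 52.4 and 52.6 FPKM in R_shLSD1, 33.5 and 57.4 in R_shFosL1 and 48.8 and 43.2 in R_shCtrl, compared with 1.02 and 1.07 in P_shLSD1 and 0.332 and 3.37 in P_shCtrl, with the same separation.

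PAGE1 was at 1.10 and 0.260 FPKM in R_shLSD1 and was listed at 0 in all R_shFosL1 and R_shCtrl libraries, compared with 4.92 and 7.10 FPKM in P_shLSD1 and 1.11 and 4.24 in P_shCtrl. All R values of PAGE1 in these tables lay below all P values. MAGEC2 was at 72.9 and 70.4 FPKM in R_shLSD1, 66.6 and 65.9 in R_shFosL1 and 61.6 and 56.4 in R_shCtrl, compared with 108 and 119.9 in P_shLSD1 and 108 and 90.6 in P_shCtrl. MAGEA11 was at 14.5 and 14.1 FPKM in R_shLSD1, 16.7 and 22.6 in R_shFosL1 and 20.4 and 23.0 in R_shCtrl. In P cells MAGEA11 was at 11.5 and 14.0 in P_shLSD1 and 15.8 and 16.1 in P_shCtrl. With the same hairpin both R libraries lay above both P libraries, narrowly with the LSD1 hairpin, whereas R_shLSD1 lay below P_shCtrl. XAGE2, higher in R_DT than in P_DT, mostly ran the other way here. It was at 1.16 and 0 FPKM in R_shLSD1, 0 and 0.315 in R_shFosL1 and 0 and 0.250 in R_shCtrl, compared with 0.914 and 1.62 in P_shLSD1 and 1.39 and 1.40 in P_shCtrl. MAGEA10-MAGEA5 was listed at 0 in all these libraries except P_shCtrl replicate 2, at 0.596 FPKM.

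Marker genes moved with the line too. The 7 melanocytic markers summed to 17.9 to 57.9 FPKM per R library, against 104 to 381 FPKM per P library. Most of the P sum was SOX10, at 89.1 to 333 FPKM in P libraries and at most 0.164 FPKM in R libraries. MITF ranged higher in R, with overlap, at 15.6 to 54.2 FPKM, against 4.82 to 29.3 FPKM in P. It was the only marker of this list at a mean of 1 FPKM or more in R_DMSO. The 5 fibroblast markers summed to 41.5 to 42.6 FPKM in R_DT, 17.7 to 18.7 in R_DMSO, 9.83 to 11.6 in P_DT and 0.959 to 1.52 in P_DMSO, through LUM and COL1A1, while COL3A1 stayed under 1 FPKM in every library. The germ cell list summed to 1.69 to 5.10 FPKM in R_DMSO, against 0.372 to 0.405 FPKM in P_DMSO, with 5 of its 7 markers listed at 0 in R_DMSO. The part of these markers in the line differences was not tested. In bulk libraries, fewer cells that transcribe a gene and less RNA per cell cannot be told apart.

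The next question was how the members responded to 250 nM dabrafenib with 10 nM trametinib in each line. The antigen most affected in direction was MAGEA4, lower in R_DT than in R_DMSO and higher in P_DT than in P_DMSO. MAGEA1 and MAGEB17 were also lower in R_DT, and PAGE1 was lower in P_DT. No other member was called in either line. In R cells 0 of 27 members were higher and 3 lower with the drugs, against 6.48% of all genes called (3.65% higher and 2.83% lower). In P cells 1 was higher and 1 lower, against 22.5% of all genes (12.8% higher and 9.67% lower). The median difference was 0.00 over the members and -0.03 over all genes in R, and 0.11 over the members and 0.11 over all genes in P.

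MAGEA4 was at 259 and 269 FPKM in R_DT, compared with 456 and 476 FPKM in R_DMSO, and the difference was -0.82 ± 0.12 (SE, limma adjusted p = 0.013). In the parental line it was at 541 and 528 FPKM in P_DT, compared with 343 and 374 FPKM in P_DMSO, and the difference was 0.58 ± 0.12 (SE, limma adjusted p = 0.016). Neither pair of groups overlapped. The difference between the responses, (R_DT minus R_DMSO) minus (P_DT minus P_DMSO), was -1.39 ± 0.17 (SE, limma adjusted p = 0.0043), and this interaction was called under every alternative tried, with adjusted p between 0.0018 and 0.04. The call within R was lost when any 1 of its 4 libraries was left out (limma adjusted p = 0.089 to 0.13). The call within P was lost without either P_DT library (limma adjusted p = 0.096 without replicate 1 and 0.084 without replicate 2) and with its 4 libraries fitted alone (0.13).

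MAGEA1 was at 5.70 and 5.20 FPKM in R_DT, compared with 19.7 and 17.3 FPKM in R_DMSO, a difference of -1.59 ± 0.18 (SE, limma adjusted p = 0.0074). In P_DT it was at 13.1 and 17.6 FPKM, compared with 20.0 and 19.0 FPKM in P_DMSO, a difference of -0.34 ± 0.18 (SE, limma adjusted p = 0.23). The R groups were far apart and the P groups close. The interaction was -1.26 ± 0.25 (SE, limma adjusted p = 0.024). It was lost when P_DT replicate 2 or any of the 4 R libraries was left out (0.07 to 0.093), and the call within R was lost without any 1 R library (0.064 to 0.073).

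MAGEB17 was at 3.36 and 3.28 FPKM in R_DT, compared with 10.3 and 10.6 FPKM in R_DMSO, a difference of -1.40 ± 0.19 (SE, limma adjusted p = 0.012). In P cells it had almost no transcript to lose, at 0 and 0.0781 FPKM in P_DT and listed at 0 in both P_DMSO libraries. The interaction was -1.46 ± 0.27 (SE, limma adjusted p = 0.018), which with no level in P carries no more than the difference within R. Without any 1 R library the call within R was lost (0.081 to 0.095), as it was with a pseudocount of 0.1 (limma adjusted p = 0.1), and the interaction was lost when any of the 4 R libraries or either P_DT library was left out (0.059 to 0.073) and with a pseudocount of 0.1 (0.1). PAGE1, called in P alone, passed the filter through the 2 P_DMSO libraries alone, where it is high. It was at 0.935 and 0 FPKM in P_DT, compared with 4.64 and 3.91 FPKM in P_DMSO, a difference of -1.92 ± 0.36 (SE, limma adjusted p = 0.013), and in R it was at 0.320 and 0 FPKM in R_DT, compared with 0.292 and 0 FPKM in R_DMSO. Its interaction was not called, but it was with the replicate block (1.93, limma adjusted p = 0.039), with quantile normalization (0.035) and without trend and robust moderation (0.044). Without P_DT replicate 1 the PAGE1 interaction was 2.41. With almost no transcript in R, the PAGE1 interaction carries no more than the difference within P. Its call in P was lost without P_DT replicate 2 (limma adjusted p = 0.058), with a pseudocount of 0.1 (0.093) and with the 4 P libraries alone (0.072).

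The other genes that marked the R line did not pass the test for the drugs. CTAG2 differed by 0.26 ± 0.16 (SE, limma adjusted p = 0.38) and MAGEB2 by -0.36 ± 0.22 (SE, limma adjusted p = 0.37) between R_DT and R_DMSO. MAGEA11 was higher in both P_DT libraries than in both P_DMSO libraries, by 0.54 ± 0.17, but missed the threshold (SE, limma adjusted p = 0.06) and passed it without P_DMSO replicate 1 (0.028). In the interaction 3 members were called lower (MAGEA1, MAGEA4 and MAGEB17) and 0 higher, against 13.9% of all genes (7.24% lower and 6.64% higher). The MAGEB17 call restates its difference within R, since the gene was at or near 0 in all 4 P libraries. The median interaction was -0.16 over the members and -0.16 over all genes. Quantile normalization, which brought the median of all genes to -0.02, kept those 3 calls. It added PAGE1 (2.09, limma adjusted p = 0.035) and XAGE2 (1.30, limma adjusted p = 0.049) as higher. The PAGE1 value restates its difference within P, since the gene was near 0 in the R libraries of the drug table. XAGE2 was also called without trend and robust moderation and without P_DMSO replicate 1 (0.044 and 0.046), and PRAME was called lower without P_DMSO replicate 1 (-0.60, limma adjusted p = 0.04). Marker sums moved with the drugs as well. In R the endothelial list summed to 7.13 to 7.82 FPKM in R_DT, against 0.298 to 0.620 FPKM in R_DMSO, with 1 of its 4 markers at a mean of 1 FPKM or more in R_DT: CDH5 reached 6.83 FPKM in R libraries, while VWF, KDR and PECAM1 stayed at 0.892 FPKM or less there. The fibroblast sums are given above for both lines. The melanocytic list summed to 35.3 to 57.9 FPKM in R_DT, against 24.9 to 27.0 FPKM in R_DMSO, and to 354 to 381 FPKM in P_DT, against 148 to 191 FPKM in P_DMSO. Their part in these results was not tested.

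**Figure D3:**
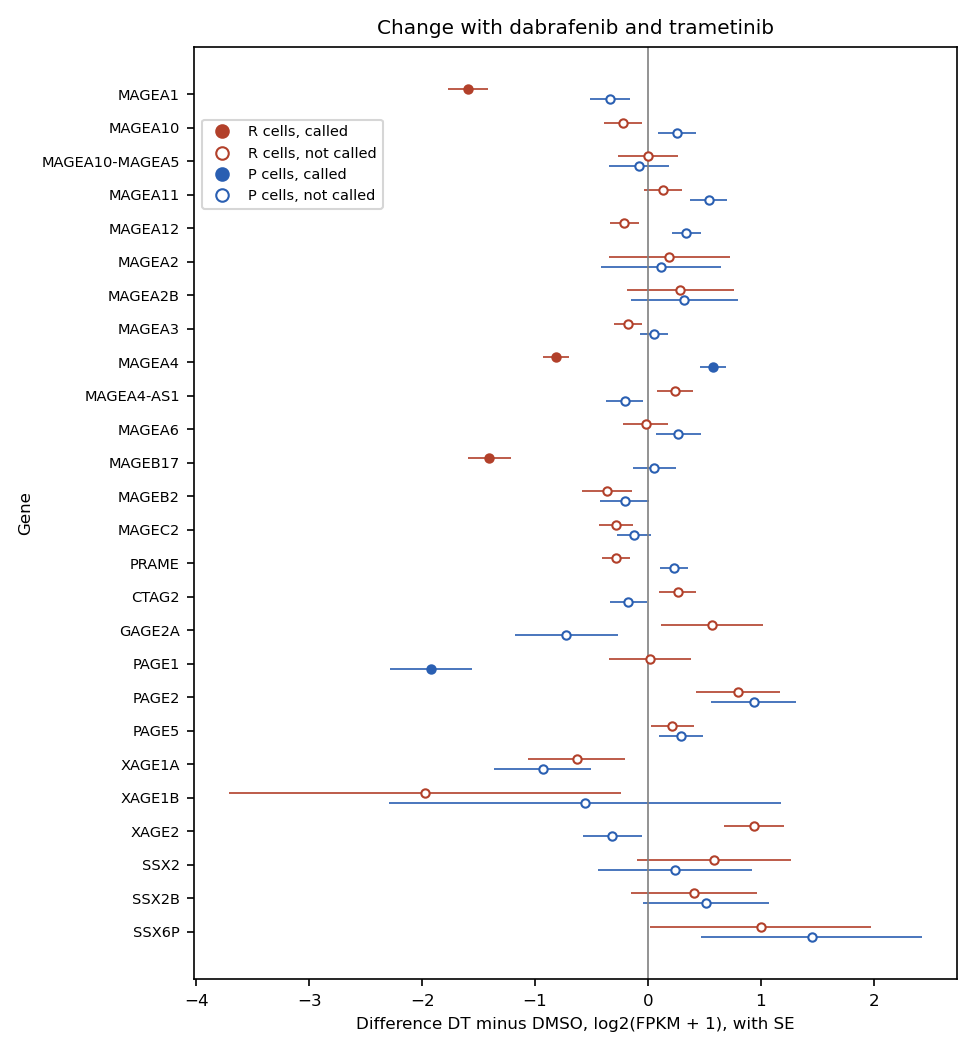
Difference between DT and DMSO for the 26 family members tested, as log2(FPKM + 1) with SE; red points are R cells, blue points P cells, and filled points were called at a limma adjusted p below 0.05. MAGEA4 is the member with filled points on opposite sides of 0 (-0.82 in R and 0.58 in P), and XAGE1B has the widest error.

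The hairpin against LSD1 addressed which members depend on this demethylase, which removes methyl groups from histone H3 and acts in repressor complexes. In R_shLSD1 cells MAGEA4 and MAGEA11 were lower and the GAGE copy GAGE12J was higher. In P_shLSD1 cells no member was called. In R 1 of 22 members tested was higher and 2 were lower, against 21.8% of all 14293 genes called (9.42% higher and 12.4% lower), with a median difference of -0.04 over the members and -0.05 over all genes. In P limma called 0 of 26 members, against 3.42% of all 14729 genes (2.2% higher and 1.22% lower), with 2 members at an unadjusted p below 0.05. There the median was -0.09 over the members and -0.04 over all genes. With the replicate number as a block XAGE1B was called in P (-1.43, limma adjusted p = 0.012), and without P_shCtrl replicate 2 CTAG1A was (-3.26, limma adjusted p = 0.024). The lines sit in separate tables, so the difference between their responses was not tested. Marker sums moved with the LSD1 hairpin. The melanocytic list summed to 37.9 to 41.1 FPKM in R_shLSD1, against 24.1 to 28.1 FPKM in R_shCtrl, and to 198 to 211 FPKM in P_shLSD1, against 104 to 110.3 FPKM in P_shCtrl. The fibroblast list summed to 20.9 to 28.4 FPKM in R_shLSD1, against 13.7 to 15.3 FPKM in R_shCtrl, and to 41.7 to 51.8 FPKM in P_shLSD1, against 4.96 to 7.67 FPKM in P_shCtrl. Lists of other cell types moved too. The leukocyte list summed to 8.08 to 10.6 FPKM in P_shLSD1, against 2.20 to 2.38 FPKM in P_shCtrl, and to 0.825 to 3.07 FPKM in R_shLSD1, against 0 to 0.151 FPKM in R_shCtrl. The keratinocyte list summed to 14.5 to 19.3 FPKM in P_shLSD1, against 4.81 to 6.48 FPKM in P_shCtrl. In R the keratinocyte list stayed low, at 0.0214 to 0.0442 FPKM in R_shLSD1, against 0.116 to 0.309 FPKM in R_shCtrl. The part of these lists in the results was not tested.

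MAGEA4 was at 360.0 and 406 FPKM in R_shLSD1, compared with 549.5 and 496 FPKM in R_shCtrl, and the difference was -0.45 ± 0.08 (SE, limma adjusted p = 0.02). In P_shLSD1 it was at 643 and 812 FPKM, compared with 964 and 768 FPKM in P_shCtrl, with overlapping groups and a difference of -0.25 ± 0.26 (SE, limma adjusted p = 0.6). MAGEA11 was at 14.5 and 14.1 FPKM in R_shLSD1, compared with 20.4 and 23.0 FPKM in R_shCtrl (-0.57 ± 0.12, SE, limma adjusted p = 0.029). Its P groups, 11.5 and 14.0 FPKM in P_shLSD1 compared with 15.8 and 16.1 FPKM in P_shCtrl, did not overlap either, but the difference of -0.30 ± 0.18 missed the threshold (SE, limma adjusted p = 0.36). GAGE12J was at 4.02 and 5.30 FPKM in R_shLSD1, compared with 1.70 and 1.05 FPKM in R_shCtrl (1.26 ± 0.26, SE, limma adjusted p = 0.028). Its transcript shares 77.4% of its windows with other genes, and the summed GAGE cluster was not called (0.34 ± 0.11, SE, limma adjusted p = 0.077). All 3 calls in R were lost when any 1 of the 4 libraries was left out (0.055 to 0.13) and with no filter on low values (0.056 to 0.065), and those of MAGEA4 and MAGEA11 also without trend and robust moderation (0.094 and 0.055).

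The line-specific genes stayed on with the LSD1 hairpin. Their levels in R_shLSD1 and R_shCtrl are given above, and the differences were 0.01 ± 0.08 for CTAG2 (SE, limma adjusted p = 0.95), -0.12 ± 0.08 for MAGEB2 (SE, limma adjusted p = 0.32) and 0.19 ± 0.09 for GAGE2A (SE, limma adjusted p = 0.19). MAGEA1 was at 36.9 and 33.9 FPKM in R_shLSD1, 31.0 and 33.8 in R_shFosL1 and 45.0 and 41.6 in R_shCtrl, and at 33.5 and 46.3 in P_shLSD1, compared with 54.0 and 40.2 in P_shCtrl. It missed the threshold in R (-0.28 ± 0.09, SE, limma adjusted p = 0.089). MAGEA10 was at 28.2 and 28.7 FPKM in R_shLSD1, 24.1 and 23.9 in R_shFosL1 and 30.2 and 23.4 in R_shCtrl, and at 30.2 and 34.1 in P_shLSD1, compared with 24.9 and 25.1 in P_shCtrl. MAGEA4-AS1 was at 12.6 and 8.13 FPKM in R_shLSD1, 15.7 and 18.7 in R_shFosL1 and 16.0 and 11.7 in R_shCtrl, and at 23.3 and 25.8 in P_shLSD1, compared with 18.9 and 10.6 in P_shCtrl, with no call. SSX2IP was at 1.84 and 4.85 FPKM in R_shLSD1, 9.18 and 7.05 in R_shFosL1 and 4.70 and 4.08 in R_shCtrl, and at 3.76 and 4.50 in P_shLSD1, compared with 6.24 and 5.98 in P_shCtrl.

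For the hairpin against FOSL1, an AP-1 subunit downstream of the MAPK pathway, the table holds no control of its own, so only levels are given. FOSL1 itself was at 36.2 and 38.3 FPKM in R_shFosL1, compared with 109 and 104 FPKM in R_shCtrl of the other table. MAGEA4 was at 323 and 338 FPKM in R_shFosL1, compared with 549.5 and 496 FPKM in R_shCtrl. PAGE5, PRAME, MAGEA1, MAGEA3, MAGEA6, MAGEA12 and GAGE12J were also lower in both R_shFosL1 libraries than in both R_shCtrl libraries. CTAG2, MAGEC2, MAGEA2B, CTAG1B, XAGE1A, XAGE1B and SSX2IP were higher in both. The tables were made separately, and these differences were not tested. The share of all genes that lay apart in the same way was not counted. The lists therefore do not set these members apart from other genes.

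Copies that share most of their sequence often differed widely between replicates, but most of them were also low. Low members with no shared window had wide gaps too. The largest gap between the libraries of a group was 2.90 for SSX6P, 1.33 for PAGE4 and 1.32 for PAGE1, on the log2(FPKM + 1) scale. The part of shared sequence in these gaps was not tested. XAGE1A and XAGE1B shared 100% of their 100-base windows with each other, as SSX2 and SSX2B did with SSX genes, MAGEA2B shared 100% and MAGEA2 97.8%, and CTAG1A and CTAG1B, the NY-ESO-1 pair, 83.7% and 83.2%. MAGEA1, MAGEA4, MAGEA11, MAGEA12, MAGEB2, MAGEC2, PAGE1, PAGE5 and PRAME shared none with another gene. XAGE1B was at 0.569 and 12.6 FPKM in R_DT, 7.21 and 39.1 in R_DMSO, 4.88 and 7.02 in P_DT and 0.758 and 57.0 in P_DMSO. With hairpins it was at 6.38 and 0.996 FPKM in R_shLSD1, 4.66 and 6.06 in R_shFosL1, 0 and 2.10 in R_shCtrl, 2.44 and 4.57 in P_shLSD1 and 15.1 and 7.65 in P_shCtrl. The 2 libraries of P_DMSO thus differed by 5.05 on the log2(FPKM + 1) scale for this gene, and XAGE1B was called in no comparison, except with the replicate block in P_shLSD1 minus P_shCtrl (-1.43, limma adjusted p = 0.012).

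The NY-ESO-1 genes were near 1 FPKM or below in most libraries. CTAG1A was at 0.707 and 0.403 FPKM in R_DT, 0.371 and 0.305 in R_DMSO, 0.328 and 0.673 in P_DT, 0.157 and 1.49 in P_DMSO, 1.09 and 0 in R_shLSD1, 0.930 and 0.806 in R_shFosL1, 0.721 and 0.847 in R_shCtrl, 0.545 and 2.12 in P_shLSD1 and 20.0 and 0.275 in P_shCtrl. CTAG1B was at 0.373 and 0.641 FPKM in R_DT, 0.386 and 0.222 in R_DMSO, 0.172 and 0.564 in P_DT, 0 and 16.3 in P_DMSO, 1.30 and 1.06 in R_shFosL1, 1.39 and 0.926 in P_shLSD1 and 1.46 and 0.281 in P_shCtrl, and it was listed at 0 in R_shLSD1 and R_shCtrl. Each gene thus had 1 high P library whose replicate was low. With the NY-ESO-1 pair summed, R_DMSO and P_DMSO differed by -1.51 ± 1.12 (SE, limma adjusted p = 0.36).

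SSX2B, whose relative SSX2 forms the fusion oncogene of synovial sarcoma, was at 9.43 and 6.46 FPKM in R_DT, 8.22 and 3.79 in R_DMSO, 5.62 and 1.22 in P_DT and 1.30 and 2.14 in P_DMSO. With hairpins it was at 0.478 and 0.282 FPKM in R_shLSD1, 1.93 and 0.667 in R_shFosL1, 1.72 and 0.173 in R_shCtrl, 4.48 and 5.96 in P_shLSD1 and 8.11 and 7.42 in P_shCtrl. The order of the lines thus differed between the drug table and the hairpin tables, and SSX2B was called in no comparison, though without P_DT replicate 1 it was higher in R_DT than in P_DT (1.99, limma adjusted p = 0.039). MAGEA2B was at 4.17 and 11.1 FPKM in R_DT, 5.62 and 5.33 in R_DMSO, 3.48 and 7.94 in P_DT, 3.36 and 4.86 in P_DMSO, 4.63 and 3.75 in R_shLSD1, 6.65 and 5.34 in R_shFosL1, 2.78 and 4.93 in R_shCtrl, 5.70 and 4.93 in P_shLSD1 and 5.09 and 5.11 in P_shCtrl, with overlap between most groups. GAGE12J was at 1.25 FPKM or less in every library outside R_shLSD1 and R_shCtrl. The other described members, GAGE12F, GAGE12H, MAGEA2, PAGE4, SSX2, SSX6P and XAGE1A, stayed under a group mean of 5 FPKM. Their highest values in any library were 6.30 FPKM for GAGE12F, 1.38 for GAGE12H, 5.34 for MAGEA2, 1.52 for PAGE4, 5.17 for SSX2, 6.49 for SSX6P and 5.64 for XAGE1A. GAGE12F was listed at 0 in all R libraries except R_shLSD1 replicate 2 (6.30 FPKM). No copy group other than the GAGE cluster was called in any comparison when its copies were summed.

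**Figure D4:**
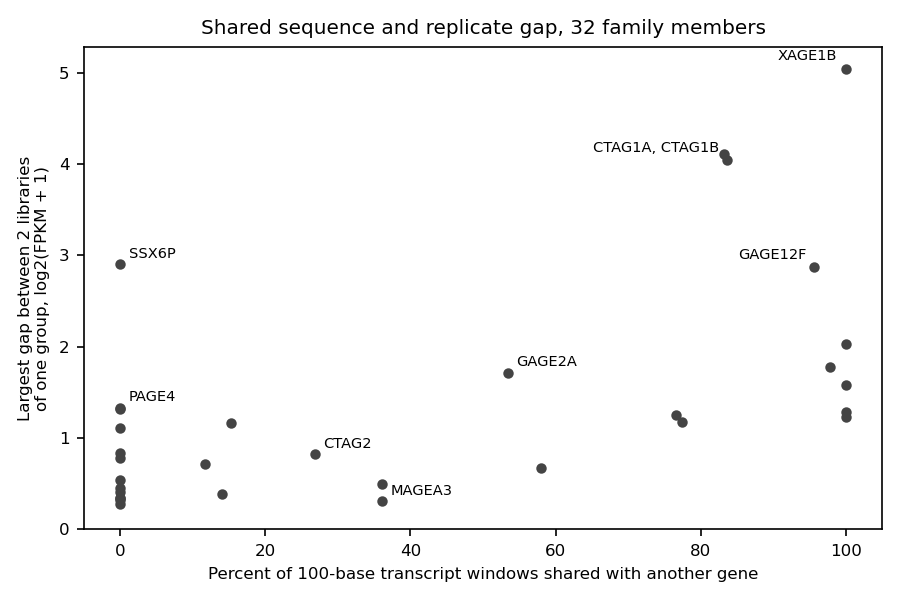
Percent of 100-base windows of each member's longest transcript that occur in another gene, against the largest gap between the 2 libraries of any group, as log2(FPKM + 1), for the 32 family members. XAGE1B, at 100% shared, has a gap of 5.05, while MAGEA3, at 36.1%, has one of 0.304; SSX6P reaches 2.90 with no shared window.

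Genes outside the member list were counted from gene lists. Of 67 other cancer-testis and germline genes, 32 were tested in the drug table; 7 were higher and 3 lower in R_DMSO than in P_DMSO, and 11 higher and 1 lower in R_DT than in P_DT. Of all genes, 27.6% were called on vehicle (16.2% higher and 11.5% lower) and 37.6% with the drugs (18.6% higher and 19% lower). The share of the list called in either direction was thus near that of all genes. By direction, the calls of the list with the drugs were nearly all higher in R_DT. However, PASD1, DPPA2, CT55, ZNF165 and NXF2 passed the filter on low values through R libraries alone, and CSAG4 through P libraries alone. Such genes could hardly be called in the other direction, so the count by direction gives no support of its own. The median differences were 0.20 and 0.58 over the list and 0.10 and -0.05 over all genes. PASD1, an X-linked antigen that represses the circadian clock, was at 10.6 and 9.85 FPKM in R_DMSO and listed at 0 in both P_DMSO libraries (limma adjusted p = 7.6e-05). It was at 9.85 to 18.6 FPKM in the 10 R libraries and listed at 0 in all 8 P libraries. DPPA2, a factor of early embryonic and germ cells, was at 3.14 and 4.20 FPKM in R_DMSO and listed at 0 in both P_DMSO libraries (limma adjusted p = 0.00076). Both genes passed the filter on low values through R libraries alone, so they had to differ once tested. With the drugs 0 of the 32 were called in R, against 6.48% of all genes, while 1 was higher and 3 lower in P, against 22.5% of all genes, the lowest adjusted p being that of IGF2BP3, an RNA-binding protein, at 17.3 and 15.6 FPKM in P_DT, compared with 41.0 and 39.2 FPKM in P_DMSO (-1.24 ± 0.13, SE, limma adjusted p = 0.0015). With the LSD1 hairpin 2 of 25 were higher and 4 lower in R, against 21.8% of all genes, and limma called 0 of 24 in P, against 3.42% of all genes.

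The type II MAGE genes are broadly expressed relatives of the members. Of 8 tested, 2 were higher and 0 lower with the drugs in R, against 6.48% of all genes called, and 3 were higher and 0 lower in P, against 22.5% of all genes. The others did not pass the test. NDN, the growth suppressor necdin, was at 61.8 and 57.3 FPKM in R_DT, compared with 25.1 and 26.6 FPKM in R_DMSO (1.17 ± 0.14, SE, limma adjusted p = 0.0089), and at 22.8 and 24.8 FPKM in P_DT, compared with 9.46 and 11.4 FPKM in P_DMSO (1.12 ± 0.14, SE, limma adjusted p = 0.0031). NDN was thus higher with the drugs in both lines, with no overlap. MAGED1, an adaptor in apoptosis, was at 85.3 and 90.2 FPKM in P_DT, compared with 18.9 and 28.9 FPKM in P_DMSO (1.86 ± 0.20, SE, limma adjusted p = 0.0017), and its interaction was -1.51 ± 0.29 (SE, limma adjusted p = 0.02).

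Of the 16 DNA methylation genes, 3 were higher and 1 lower in R_DMSO than in P_DMSO, a share near the 27.6% of all genes called. UHRF1, which brings the maintenance methyltransferase to replicated DNA, was at 46.3 and 41.1 FPKM in R_DMSO, compared with 17.5 and 22.4 FPKM in P_DMSO (1.10 ± 0.17, SE, limma adjusted p = 0.0047), and fell to 23.5 and 26.1 FPKM in R_DT, against those R_DMSO values (-0.79 ± 0.17, SE, limma adjusted p = 0.044). DNMT1, the maintenance methyltransferase, was at 73.9 and 63.5 FPKM in R_DMSO, compared with 55.6 and 64.1 FPKM in P_DMSO, and was not called (0.20 ± 0.17, SE, limma adjusted p = 0.45). With the LSD1 hairpin in R, 2 of the 16 were higher and 3 lower, against 21.8% of all genes called. DNMT1 was lower, at 54.6 and 54.2 FPKM in R_shLSD1, compared with 67.9 and 68.5 FPKM in R_shCtrl (-0.32 ± 0.07, SE, limma adjusted p = 0.03). DNMT3B lay the other way, at 5.21 and 4.17 FPKM in R_shLSD1, compared with 1.70 and 1.86 FPKM in R_shCtrl. The de novo methyltransferases went opposite ways at low levels: DNMT3A was at 2.39 and 1.98 FPKM in R_DMSO, compared with 4.46 and 4.63 FPKM in P_DMSO (-0.80 ± 0.18, SE, limma adjusted p = 0.019), and DNMT3B at 2.37 and 1.98 FPKM in R_DMSO, compared with 0.635 and 0.382 FPKM in P_DMSO (1.08 ± 0.22, SE, limma adjusted p = 0.012). TET1, a DNA demethylase, was at 0.948 and 1.33 FPKM in R_DMSO, compared with 0.475 and 0.367 FPKM in P_DMSO, and was not called (limma adjusted p = 0.091). With the drugs limma called 0 of the 16 in P, against 22.5% of all genes, and UHRF1 alone in R, against 6.48%.

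Of 27 chromatin repressors of germline genes, 6 were higher and 1 lower in R_DMSO than in P_DMSO, 3 were lower and 0 higher with the drugs in R, and 3 were higher and 2 lower in P. The shares of all genes called were 27.6% between the lines, 6.48% with the drugs in R and 22.5% in P, so between the lines and in P the list was near the background. TRIM28, a corepressor and the ligase partner of MAGEA3, MAGEA6 and MAGEC2, was at 125 and 112 FPKM in R_DT, compared with 244 and 215 FPKM in R_DMSO (-0.95 ± 0.15, SE, limma adjusted p = 0.018). In P it was at 165 and 179.7 FPKM in P_DT, compared with 131 and 159.8 FPKM in P_DMSO, and the interaction was -1.20 ± 0.21 (SE, limma adjusted p = 0.016). KDM1A was at 112 and 104 FPKM in R_DMSO, compared with 56.5 and 55.2 FPKM in P_DMSO (0.94 ± 0.11, SE, limma adjusted p = 0.0018), whereas the separately made control hairpin libraries had 73.3 and 76.5 FPKM in R_shCtrl and 78.1 and 72.4 FPKM in P_shCtrl. Of 12 ligase partners of MAGE proteins and PRAME, 3 were higher and 0 lower in R_DMSO than in P_DMSO, again near the 27.6% of all genes. USP7, a deubiquitinase that binds a MAGE partner ligase, was among them, at 68.3 and 60.7 FPKM in R_DMSO, compared with 38.5 and 36.8 FPKM in P_DMSO (0.76 ± 0.12, SE, limma adjusted p = 0.0054).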

How the data were processed

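RNA of 18 A375 libraries in 9 groups of 2 was sequenced, and the authors deposited 4 tables of FPKM values, made separately. Per the submitters' processing notes, CASAVA 1.4, HISAT2 2.1.0, Cufflinks 2.2.1 and build hg38 were used. No counts were used here, and steps among low values did not give each library's depth, so depth is unknown and no counting interval is given. A filter of 1 FPKM in at least 2 libraries of a table was applied, and log2(FPKM + 1) was fitted with limma 3.58.1 in R 4.3.3 (trend and robust moderation). The 8 drug libraries were fitted together and each LSD1 hairpin table alone. Benjamini-Hochberg adjustment ran over all genes tested, with 0.05 as the threshold. R_shFosL1 was described by levels only. The fit was tested on simulated data. Alternatives were a pseudocount of 0.1, no filter, quantile normalization, a replicate block, summed copies, only the 4 libraries compared, moderation without trend and robust, and each library left out. Members called or with a group mean of 5 FPKM or more were given library by library. The comparisons R_DT minus R_DMSO and R_DMSO minus P_DMSO share R_DMSO libraries, and likewise for the other pairs within the drug table. Members, gene lists and tests were chosen with earlier results of these data known. Promoter sequences came from RefSeq.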

Additional observations from a re-analysis of the deposited data

Results flagged for a closer look

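The interaction between drugs and line was called for 3 members, MAGEA4, MAGEA1 and MAGEB17, as (R_DT minus R_DMSO) minus (P_DT minus P_DMSO), on the log2(FPKM + 1) scale. For MAGEA4 the interaction was -1.391 (limma adjusted p = 0.0043), with a lower level in R_DT than in R_DMSO and a higher one in P_DT than in P_DMSO. For MAGEA1 it was -1.257 (limma adjusted p = 0.024), and this gene was lower with the drugs by 1.59 in R, while the difference of -0.34 in P was not called. For MAGEB17 it was -1.459 (limma adjusted p = 0.018), with at most 0.0781 FPKM in any P library of the drug table, so this value restates its difference within R and does not show a different response. Without 1 library the MAGEA1 interaction was lost in 5 of 8 cases and that of MAGEB17 in 6 of 8, whereas that of MAGEA4 was lost in 0 of 8.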

How the results depend on the processing

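No member reversed its direction under any alternative where it had been called. The number of members called with the drugs in P was 2, against 1 with a pseudocount of 0.1, 0 with the 4 libraries alone and 1 to 3 with a library left out. With the drugs in R it was 3, against 0 with any library left out. The interaction had 3 calls, against 5 with quantile normalization, 5 without trend and robust moderation and 1 to 5 with a library left out. For the LSD1 hairpin in R it was 3, against 0 with no filter, 1 without trend and robust moderation and 0 with any library left out. In P it was 0, against 1 with a replicate block and 0 to 1 with a library left out. The line comparison gave 9 calls on vehicle, with 7 to 11 when a library was left out, and 13 with the drugs, with 10 to 13. The cause of these shifts was not tested. Over all genes, leaving out a library moved the calls with the drugs in R to between 66 and 107, against 1114, and those of the LSD1 hairpin in R to between 0 and 903, against 3118. In P leaving out a library gave 1361 to 6136 calls with the drugs, against 3861, and 4 to 336 with the LSD1 hairpin, against 504. Replicate numbers are shared between groups, but deviations of same-numbered libraries were weakly or negatively correlated (-0.34 to 0.15 over 10440 genes). The value of -0.34 was between P_shLSD1 and P_shCtrl, where opposite-numbered libraries thus tended to deviate together. Its part in the calls there was not tested. The block gave 2 calls with the drugs in P, 3 in R, 9 and 12 between the lines, 4 in the interaction and 4 for the LSD1 hairpin in R. With 2 libraries a group and unknown depth, levels under 1 FPKM and differences among near-identical copies were poorly determined.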
